A study of Mus musculus with 12 samples.

Results

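Voltage-gated calcium channel subunit genes were followed in 4 laser-captured pieces of mouse hippocampus. The genes were 10 members of the family chosen by symbol, 8 for pore-forming subunits (Cacna1a, Cacna1b, Cacna1c, Cacna1d, Cacna1e, Cacna1g, Cacna1h and Cacna1i) and 2 for alpha2delta subunits (Cacna2d1 and Cacna2d3), out of 30142 genes tested. Each had exactly 1 array feature with a single gene symbol, so no choice between features was needed. The groups were the CA1 dendritic layer (stratum radiatum), the CA1 cell body layer (stratum pyramidale), the CA2 dendritic layer and the CA2 cell body layer, with 3 Affymetrix whole-transcriptome arrays each. All tissue came from male Amigo2-EGFP reporter mice of the C57BL/6J strain aged 6 to 8 weeks, with 4 pieces captured from each of 3 brains. Every group therefore carried the reporter, and none was a reporter-free control. The labels do not say whether the reporter guided the captures. The CA1 arrays all have run number 938 and the CA2 arrays run number 907, and where CA2 is set against CA1 the effects of region and of run cannot be told apart.

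Voltage-gated calcium channels open when the membrane is depolarized and let calcium into the neuron. The pore-forming subunit sets the channel class: Cacna1c and Cacna1d encode L-type channels, which couple activity in the soma and dendrites to gene expression, Cacna1a the P/Q type and Cacna1b the N type, which drive transmitter release, Cacna1e the R type, found in spines and dendrites of hippocampal pyramidal cells, and Cacna1g, Cacna1h and Cacna1i the T type, which opens at low voltage. The high-voltage classes work together with cytoplasmic beta subunits and with alpha2delta subunits on the outer face of the membrane, which promote channel trafficking.

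The promoter windows of Cacna1e, Cacna2d1 and Cacna2d3, the genes with the largest layer differences in CA1, are shown with that of Cacna1i, whose layer difference passed in neither region. In CA2 the difference of Cacna1c exceeded that of Cacna2d1. Sequences are the 250 bases before the transcription start given by RefSeq, build GRCm38.p6, which held entries for 7 of the 10 genes, and they are written 5′ to 3′ on the strand of the gene. Capitals mark GC boxes (GGGCGG) and the short form of the cAMP response element (TGACG), searched on both strands with overlapping matches counted.
Cacna1e (chr1:154725921-154726170, minus strand): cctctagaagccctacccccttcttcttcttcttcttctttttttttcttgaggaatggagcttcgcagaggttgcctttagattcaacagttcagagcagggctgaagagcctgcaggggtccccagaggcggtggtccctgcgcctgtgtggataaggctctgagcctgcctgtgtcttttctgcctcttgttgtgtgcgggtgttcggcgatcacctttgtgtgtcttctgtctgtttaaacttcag
Cacna2d1 (chr5:15934441-15934690, plus strand): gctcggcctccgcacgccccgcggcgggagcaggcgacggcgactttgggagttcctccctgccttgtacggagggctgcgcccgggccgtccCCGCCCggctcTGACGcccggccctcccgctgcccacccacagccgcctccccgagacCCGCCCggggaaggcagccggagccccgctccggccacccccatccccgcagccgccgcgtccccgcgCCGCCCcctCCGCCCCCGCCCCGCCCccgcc
Cacna2d3 (chr14:29721865-29722114, minus strand): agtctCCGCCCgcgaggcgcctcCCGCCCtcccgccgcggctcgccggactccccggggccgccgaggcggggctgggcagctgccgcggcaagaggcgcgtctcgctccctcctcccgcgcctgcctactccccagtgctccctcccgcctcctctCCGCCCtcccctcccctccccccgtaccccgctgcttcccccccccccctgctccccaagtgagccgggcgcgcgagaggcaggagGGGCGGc
Cacna1i (chr15:80286988-80287237, plus strand): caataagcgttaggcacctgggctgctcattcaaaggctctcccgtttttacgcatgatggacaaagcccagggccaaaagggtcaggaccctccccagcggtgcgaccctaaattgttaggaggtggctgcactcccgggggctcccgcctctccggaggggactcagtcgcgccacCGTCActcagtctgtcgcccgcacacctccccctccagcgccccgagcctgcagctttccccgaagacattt
The Cacna1e window held 0 GC boxes and 6 CpG dinucleotides, the median over 32851 promoters of this length. It lies inside the RefSeq span of the gene (chr1:154390806-154884785, minus strand), before an internal start. It therefore does not show the bases before the 5′ end of Cacna1e. The windows of Cacna2d1 and Cacna2d3 also lie inside the spans of their genes (chr5:15934264-16374511 and chr14:28904943-29722775). The Cacna2d1 and Cacna2d3 windows held 6 and 4 GC boxes and 36 and 30 CpG, more than in 97.4% and 94.1% of promoters, and a GC box occurred in 32.7% of promoters. TGACG occurred once in the Cacna2d1 window and once in that of Cacna1i, and in 17.8% of promoters. The windows of Cacna1e, Cacna2d1 and Cacna2d3 thus did not share a base composition, with that of Cacna1e taken at an internal start. Cacna1c and Cacna1d had 3 and 2 RefSeq promoters, which ran from 2 to 48 CpG and from 2 to 50 CpG, and an array feature does not tell transcripts from these starts apart.

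Values are on the authors' normalized log2 scale, so a difference of 1 is a 2-fold difference. Levels of different genes are not set against each other, since each feature has its own probes. All 10 genes lay above the array median, which was 5.68 to 5.88, on all 12 arrays. That median is taken over all features, and 19451 of the 30142 genes had a mean above the median feature. The labels of the pieces fitted several markers but not all. Neurod6 and Slc17a7, genes of excitatory pyramidal neurons, averaged 9.73 and 9.86 in the CA1 dendritic layer against 12.30 and 10.19 in the CA1 cell body layer, and 8.63 and 9.32 in the CA2 dendritic layer against 11.81 and 10.49 in the CA2 cell body layer. Amigo2 was 9.73 ± 0.18 in the CA2 cell body layer against 6.90 ± 0.10 in the CA1 cell body layer, and the CA1 marker Wfs1 was 8.70 ± 0.27 against 11.42 ± 0.09 (SD, n = 3 each). Other markers went another way. The pyramidal gene Camk2a was higher in the dendritic layers, by 0.71 in CA1 and 0.68 in CA2. The CA2 markers Pcp4 and Necab2 were higher in the CA1 dendritic than in the CA1 cell body layer, by 2.21 and 1.09. Between the dendritic layers the CA2 markers Amigo2 and Rgs14 differed by 0.30 and 0.06, CA2 minus CA1. Transcripts of oocytes, which have no place in hippocampus, stood out on CA2 cell body array 1 and CA2 dendrite arrays 2 and 3. On these the summed level of 15 oocyte genes was 11.31, 11.47 and 11.40, against 9.59 to 9.96 on the other arrays. Comparisons that use CA2 are therefore also described without these 3 arrays. Leaving them out keeps 1 CA2 dendrite array, whose spread is then assumed to be that of the other groups.

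**Figure D1:**
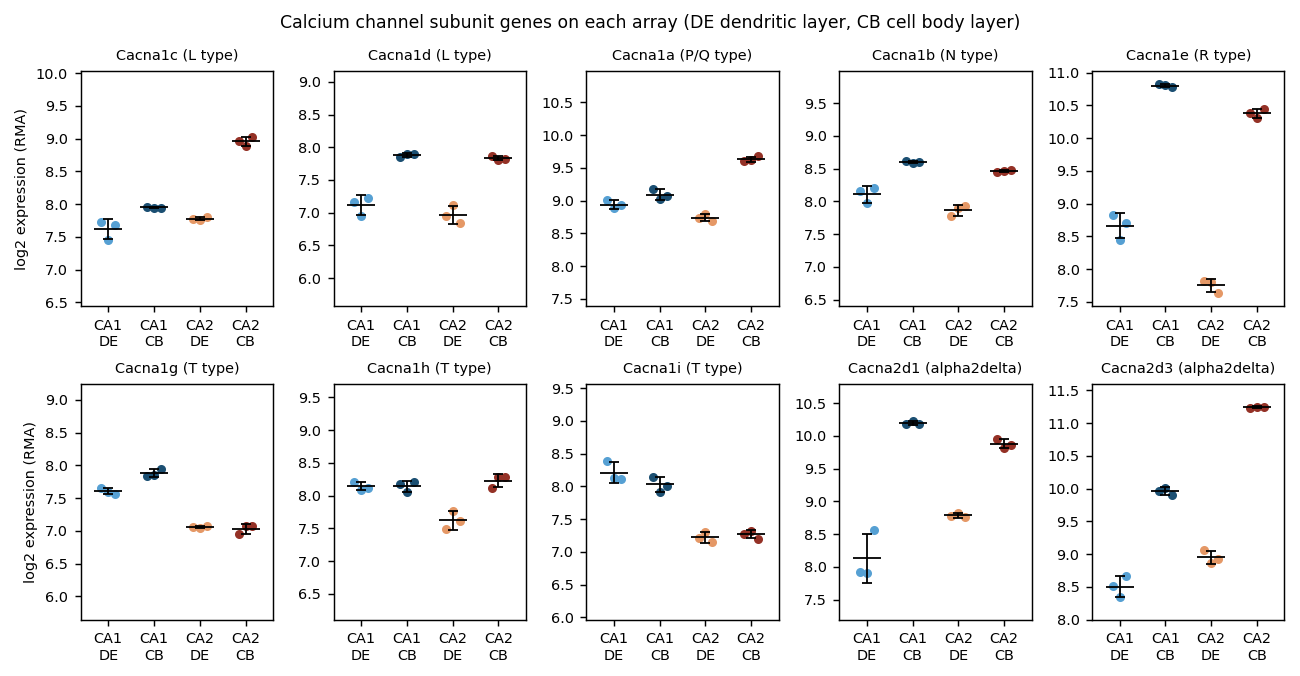
Log2 expression of each calcium channel gene on the 12 arrays, by region and layer. Coloured points are arrays, black bars are means with SD (n = 3), and every panel spans the same range of log2 units around its own centre. The dendritic layer lies below the cell body layer for Cacna1e, Cacna2d1 and Cacna2d3 in both regions, while Cacna1g and Cacna1i separate CA1 from CA2.

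Within CA1, the question was whether RNAs for channel subunits differ between the dendritic and the cell body layer. Of the 10 genes, 7 were lower in the dendritic layer, 0 were higher and 3 did not pass, where 18.5% of all 30142 genes were lower and 28.3% higher (46.9% called in either direction; limma, adjusted p under 0.05). The median difference was -0.41 over the 10 genes and 0.12 over all genes. Within CA2, 8 of the 10 were lower, 0 higher and 2 did not pass, where 17.8% of all genes were lower and 16.2% higher (34.0% called), with medians of -0.88 and -0.03. The CA2 differences without the arrays with oocyte transcripts rest on 1 dendrite array. They were -1.03 for Cacna1a, -0.75 for Cacna1b, -1.27 for Cacna1c, -0.88 for Cacna1d and -2.69 for Cacna1e. They were -0.88 for Cacna1h, -2.20 for Cacna2d3, -0.28 for Cacna1i and -0.02 for Cacna1g. Cacna2d1 stood at -0.90, and its call was lost. The 2 groups did not overlap for 8 of 10 genes in CA1, against 55.1% of all genes, and for 8 of 10 in CA2, against 47.3%. A bulk array cannot tell fewer cells of a type from less RNA per cell. Poly-A control features, which report on amplification, averaged 8.07 in the CA1 dendritic against 10.89 in the CA1 cell body layer. In CA2 they averaged 9.53 against 8.66. Their part in the layer differences was not tested.

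The R-type gene Cacna1e had the largest layer difference in both regions, though in CA1 Cacna2d1 came close (-2.07, SE 0.14). Over the alternatives the CA1 difference ran from -2.215 to -2.03 for Cacna1e and from -2.29 to -1.94 for Cacna2d1, so their order in CA1 is not settled. Cacna1e is described first. It read 8.83, 8.45 and 8.71 on the CA1 dendrite arrays against 10.82, 10.81 and 10.78 on the CA1 cell body arrays. In CA2 it read 7.82, 7.80 and 7.64 on the dendrite arrays against 10.39, 10.31 and 10.44 on the cell body arrays. Every dendrite array thus lay more than 1 unit below every cell body array, and no groups overlapped. Cacna1e fell by 2.14 (SE 0.09, 4.41-fold, adjusted p = 6.5e-08) in the CA1 dendritic layer and by 2.63 (SE 0.09, 6.18-fold, adjusted p = 2.1e-08) in that of CA2. Only 0.3% and 0.1% of all genes had a more negative layer difference.

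Both alpha2delta genes passed in CA1 and in CA2, with lower levels in the dendritic layers. Cacna2d1, which encodes a target of gabapentin, read 7.93, 7.91 and 8.56 on the CA1 dendrite arrays against 10.18, 10.23 and 10.19 on the CA1 cell body arrays. In CA2 it read 8.78, 8.83 and 8.76 on the dendrite arrays against 9.96, 9.82 and 9.87 on the cell body arrays. The third CA1 dendrite array stood above its 2 partners, but the layers stayed apart in both regions. Cacna2d1 fell by 2.07 (SE 0.14, 4.19-fold, adjusted p = 1.3e-06) in CA1 and by 1.09 (SE 0.14, 2.13-fold, adjusted p = 1.0e-04) in CA2; without the arrays with oocyte transcripts the CA2 call was lost (-0.90, adjusted p = 0.0517). Cacna2d3, the relative of Cacna2d1 that is known from auditory and nociceptive pathways in mice, read 8.51, 8.34 and 8.66 on the CA1 dendrite arrays against 9.97, 10.01 and 9.90 on the CA1 cell body arrays. Its CA2 values were 9.06, 8.87 and 8.92 on the dendrite arrays against 11.24, 11.25 and 11.25 on the cell body arrays, which hardly varied. It fell by 1.46 (2.74-fold, adjusted p = 5.8e-07) in CA1 and by 2.30 (4.91-fold, adjusted p = 3.0e-08) in CA2.

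Of the L-type genes, Cacna1c read 7.73, 7.45 and 7.68 on the CA1 dendrite arrays against 7.96, 7.94 and 7.94 on the CA1 cell body arrays. The CA2 values were 7.78, 7.76 and 7.80 on the dendrite arrays against 8.96, 8.89 and 9.02 on the cell body arrays. The dendritic levels of both regions lay close together, and the CA2 cell body arrays stood above all others. Cacna1c fell by 0.33 (adjusted p = 0.0034) in the CA1 dendritic layer, a call lost without replicate 2 (-0.25, adjusted p = 0.0621), and by 1.18 (adjusted p = 5.7e-07) in CA2. Cacna1d, the L-type gene whose channel opens at less depolarized voltages, read 7.17, 6.95 and 7.23 on the CA1 dendrite arrays against 7.85, 7.90 and 7.89 on the CA1 cell body arrays. Its CA2 values were 6.95, 7.12 and 6.85 on the dendrite arrays against 7.86, 7.80 and 7.82 on the cell body arrays. Within each layer the values of both regions overlapped, with a fall of 0.76 (adjusted p = 7.9e-05) in CA1 and of 0.85 (adjusted p = 3.9e-05) in CA2.

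The genes of the presynaptic channels differed from each other. Cacna1a read 9.01, 8.88 and 8.94 on the CA1 dendrite arrays against 9.18, 9.03 and 9.07 on the CA1 cell body arrays. On the CA2 side it read 8.73, 8.79 and 8.69 on the dendrite arrays against 9.60, 9.62 and 9.68 on the cell body arrays. The CA1 groups were close and the CA2 groups far apart, with a difference of -0.15 that did not pass (SE 0.07, adjusted p = 0.093) in CA1 and a fall of 0.90 (adjusted p = 3.0e-06) in CA2. Cacna1b read 8.16, 7.97 and 8.21 on the CA1 dendrite arrays against 8.62, 8.59 and 8.60 on the CA1 cell body arrays. Its CA2 values were 7.77, 7.89 and 7.93 on the dendrite arrays against 8.45, 8.46 and 8.48 on the cell body arrays. The layers did not overlap in either region, and it fell by 0.49 (adjusted p = 3.2e-04) in CA1 and 0.60 (adjusted p = 8.6e-05) in CA2.

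Of the 3 T-type genes, Cacna1g passed in CA1, Cacna1h in CA2 and Cacna1i in neither. Cacna1g read 7.65, 7.60 and 7.57 on the CA1 dendrite arrays against 7.84, 7.85 and 7.94 on the CA1 cell body arrays. The values in CA2 were 7.06, 7.05 and 7.07 on the dendrite arrays against 6.95, 7.07 and 7.08 on the cell body arrays, which overlapped. It fell by 0.27 (adjusted p = 0.0063) in CA1, a call lost without replicate 2 (adjusted p = 0.055) or replicate 3 (adjusted p = 0.0762), and differed by 0.03 (SE 0.06, adjusted p = 0.81) in CA2. Cacna1h read 8.21, 8.09 and 8.11 on the CA1 dendrite arrays against 8.18, 8.05 and 8.20 on the CA1 cell body arrays. Its CA2 values were 7.49, 7.76 and 7.61 on the dendrite arrays against 8.11, 8.28 and 8.29 on the cell body arrays. The CA1 layers overlapped (-0.01, SE 0.09, adjusted p = 0.95) while the CA2 dendritic layer was lower by 0.61 on the log2 scale (adjusted p = 3.0e-04). Cacna1i read 8.39, 8.13 and 8.11 on the CA1 dendrite arrays against 8.15, 7.92 and 8.01 on the CA1 cell body arrays. In CA2 it read 7.21, 7.30 and 7.15 on the dendrite arrays against 7.28, 7.32 and 7.20 on the cell body arrays. Its layers overlapped in both regions. The differences were 0.18 (SE 0.08, adjusted p = 0.088) in CA1, the sole positive one of the 10 there, which passed after quantile normalization (0.28, adjusted p = 0.0214), and -0.05 (SE 0.08, adjusted p = 0.73) in CA2.

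**Figure D2:**
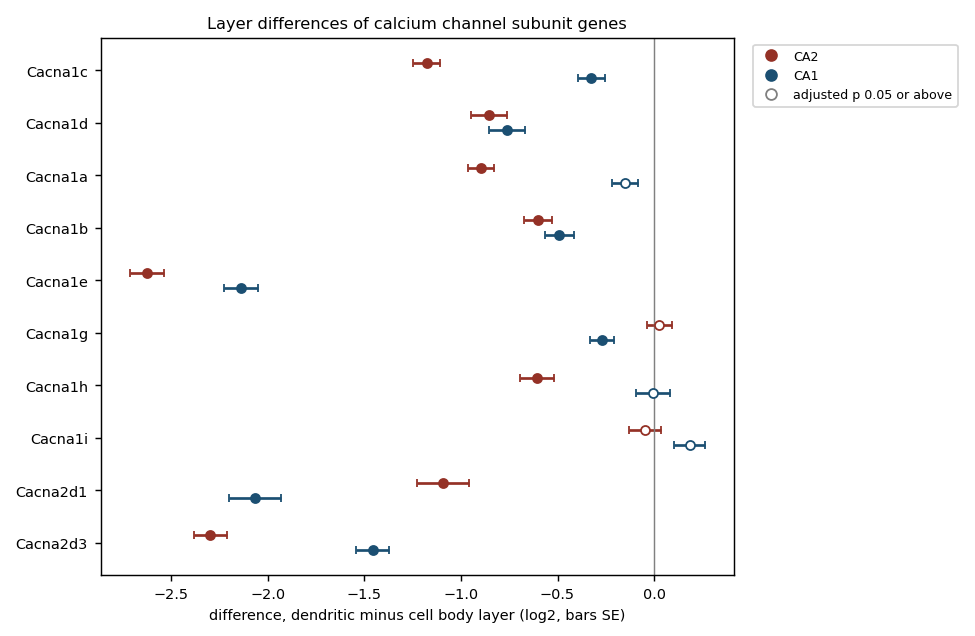
Layer difference of each gene (dendritic minus cell body layer, log2) in CA2 and in CA1, with bars for the SE of the limma fit and open points for an adjusted p of 0.05 or above. Cacna1e lies farthest to the left in both regions, and Cacna1i is open in both.

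Markers of other cells moved with the layers. The summed level of 12 astrocyte genes averaged 14.25 in the CA1 dendritic layer against 12.05 in the CA1 cell body layer, and 14.28 in the CA2 dendritic layer against 12.29 in the CA2 cell body layer. All 12 genes were higher in the dendritic layer of both regions. That of 14 interneuron genes ranged from 12.96 to 13.33 against 11.74 to 11.88 in CA1, where 12 were higher and 1 lower, and from 13.23 to 13.43 against 11.87 to 12.03 in CA2, where 11 were higher and 0 lower. That of 7 pyramidal neuron genes ranged from 13.53 to 13.55 against 13.81 to 13.86 in CA1, with 1 higher and 4 lower, and from 13.19 to 13.27 against 13.63 to 13.68 in CA2, with 1 higher and 6 lower. The median differences of the pyramidal genes were -0.33 in CA1 and -1.17 in CA2, beside -0.41 and -0.88 for the calcium channel genes. The defining markers Gfap, Aqp4, Gad1, Gad2, Slc17a7 and Neurod6 had group means of at least 6.96, above the array medians, in all 4 groups. Their part in the layer differences was not tested.

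**Figure D3:**
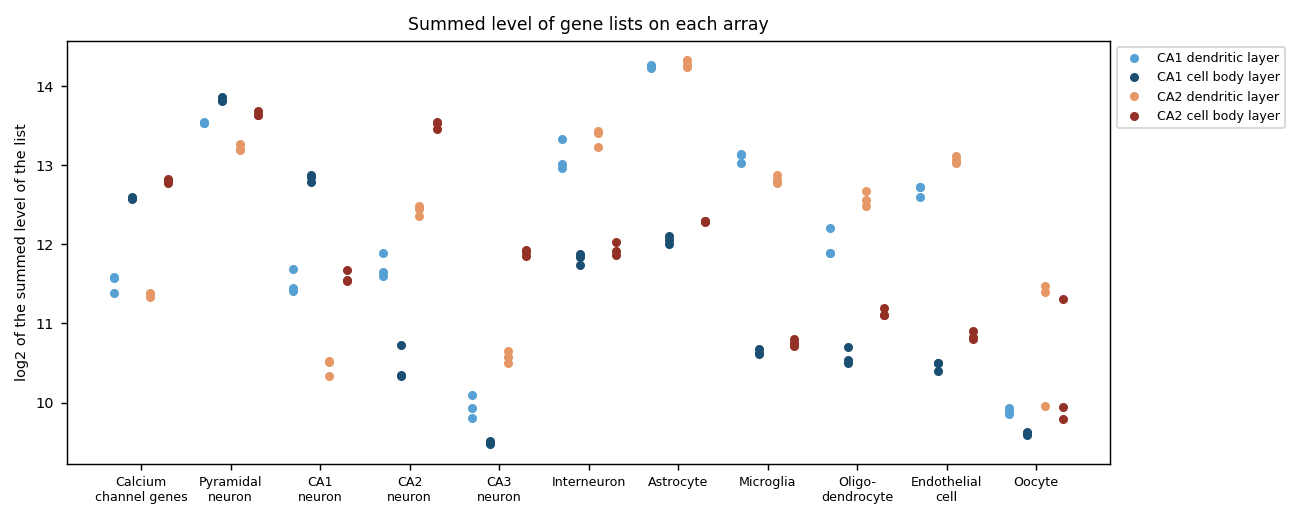
Log2 of the summed level of the 10 calcium channel genes and of marker lists on each of the 12 arrays, by group. Calcium channel and pyramidal neuron genes sum lower in the dendritic layers, astrocyte, microglia, oligodendrocyte, endothelial and interneuron genes sum higher, and 3 CA2 arrays stand out for oocyte genes.

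The layer difference was then compared between the regions, a contrast in which a run shift equal in both layers cancels. A shift that is unequal between the layers does not cancel. Poly-A control features were lower in the dendritic layer of CA1 (8.07 against 10.89) and higher in that of CA2 (9.53 against 8.66). Hybridization controls averaged 13.07 against 12.47 in CA1 and 12.53 against 12.12 in CA2. The part of these controls in the contrast was not tested. Of the 10 genes, 5 had a more negative layer difference in CA2 than in CA1 and 1 a less negative one, where 6.81% and 4.81% of all genes were called in these directions (11.6% in all). The median was -0.36 over the 10 genes and -0.11 over all genes. Cacna1c (-0.85, SE 0.10, adjusted p = 7.2e-04), Cacna2d3 (-0.84, SE 0.12, adjusted p = 0.0023), Cacna1a (-0.75, SE 0.10, adjusted p = 0.0013), Cacna1h (-0.60, adjusted p = 0.0145) and Cacna1e (-0.49, adjusted p = 0.0353) were more negative in CA2. Cacna2d1 differed the other way (0.97, SE 0.19, adjusted p = 0.0115), so the alpha2delta genes went in opposite directions. For Cacna1g (0.30, adjusted p = 0.062), Cacna1i (-0.23, adjusted p = 0.20), Cacna1b (-0.11, SE 0.10, adjusted p = 0.47) and Cacna1d (-0.09, SE 0.13, adjusted p = 0.65) the difference did not pass. The call of Cacna1e was lost in 16 of 24 alternatives (adjusted p between 0.0116 and 0.191 over all 24). Without the arrays with oocyte transcripts, Cacna1a, Cacna1c and Cacna1h passed, all more negative in CA2, while Cacna1e (adjusted p = 0.155), Cacna2d1 (1.17, adjusted p = 0.0919) and Cacna2d3 (-0.75, adjusted p = 0.101) did not pass. Leaving out a replicate number ended the call of Cacna1h each time (adjusted p between 0.0741 and 0.0889) and that of Cacna2d1 for number 1 (adjusted p = 0.0969) and number 2 (adjusted p = 0.159). The calls of Cacna1a and Cacna1c held in all 24 alternatives. Markers of pyramidal neurons moved with this contrast, with 4 of 7 more negative in CA2, 0 less negative and a median of -0.60. Other lists moved too. More negative in CA2 were 7 of 7 CA2 neuron genes, 4 of 6 CA3 neuron genes and 7 of 11 microglia genes, with 0 less negative in each. Of 7 CA1 neuron genes, 4 were less negative and 0 more negative. Of 12 astrocyte genes, 1 was more negative and 0 less negative. The part of these cells in the contrast was not tested.

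Between the cell body layers, CA2 against CA1, 3 of the 10 genes were higher and 3 lower, where 10.6% and 10.5% of all genes were called (21.1% in all). The median difference was -0.10 over the 10 genes and 0.02 over all genes. Cacna2d3 was higher in CA2, at 11.25 ± 0.01 in CA2 against 9.96 ± 0.06 in CA1 (1.29, 2.44-fold, adjusted p = 4.4e-06). Cacna1c was 8.96 ± 0.07 in CA2 against 7.95 ± 0.01 in CA1 (1.01, 2.01-fold, adjusted p = 6.1e-06), and Cacna1a 9.63 ± 0.04 against 9.09 ± 0.08 (0.54, adjusted p = 3.4e-04). Lower in CA2 were the T-type genes Cacna1g, at 7.03 ± 0.07 in CA2 against 7.88 ± 0.06 in CA1 (-0.84, 1.79-fold, adjusted p = 1.1e-05), and Cacna1i, at 7.27 ± 0.06 against 8.03 ± 0.12 (-0.76, adjusted p = 1.2e-04). Cacna1e was also lower, at 10.38 ± 0.07 in CA2 against 10.80 ± 0.02 in CA1 (-0.42, adjusted p = 0.0071), although the call was lost without replicate 1 (adjusted p = 0.0565). Cacna2d1 (-0.32, SE 0.14, adjusted p = 0.14), Cacna1b (-0.14, SE 0.07, adjusted p = 0.22), Cacna1h (0.08, SE 0.09, adjusted p = 0.58) and Cacna1d (-0.05, SE 0.09, adjusted p = 0.76) did not pass. Cacna2d1 passed in 3 alternatives, with those 2 groups fitted alone (adjusted p = 0.0162), with array weights (adjusted p = 0.0184) and without the third CA1 dendrite array (adjusted p = 0.0061). Groups were apart for 8 of the 10 genes, against 43.7% of all genes. Without the arrays with oocyte transcripts the calls above held. The differences were then 1.29 for Cacna2d3, 1.04 for Cacna1c, 0.595 for Cacna1a, -0.80 for Cacna1g, -0.69 for Cacna1i and -0.38 for Cacna1e. The summed level of 6 CA3 genes ranged from 11.85 to 11.93 in the CA2 cell body layer against 9.47 to 9.52 in that of CA1, with all 6 higher in CA2. Of 10 oligodendrocyte genes, 9 were higher in CA2 and 0 lower, and of 12 endothelial genes 6 were higher and 0 lower. The part of neighbouring CA3 cells and of these other cells was not tested.

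Between the dendritic layers, 2 genes were higher in CA2 and 6 lower, where 11.6% and 18.6% of all genes were called (30.2% in all). The median difference was -0.23 over the 10 genes and -0.11 over all genes. Cacna1i was 7.22 ± 0.08 in CA2 against 8.21 ± 0.16 in CA1 (-0.99, 1.99-fold, adjusted p = 7.6e-05), and Cacna1e 7.75 ± 0.10 against 8.66 ± 0.19 (-0.91, adjusted p = 1.5e-04). Cacna1g, at 7.06 ± 0.01 in CA2 against 7.61 ± 0.04 in CA1 (-0.55, adjusted p = 3.5e-04), and Cacna1h, at 7.62 ± 0.14 against 8.14 ± 0.06 (-0.52, adjusted p = 0.0024), completed the T-type set, so all 3 T-type genes were lower in the CA2 dendritic layer. Cacna2d1 was higher, at 8.79 ± 0.04 in CA2 against 8.13 ± 0.37 in CA1 (0.66, adjusted p = 0.0065), as was Cacna2d3, at 8.95 ± 0.10 against 8.50 ± 0.16 (0.45, adjusted p = 0.0042). The lower calls of Cacna1b (-0.25, adjusted p = 0.028) and Cacna1a (-0.21, adjusted p = 0.044) were lost in 12 and 20 of 25 alternatives. Cacna1c (0.16, SE 0.07, adjusted p = 0.10) and Cacna1d (-0.14, SE 0.09, adjusted p = 0.25) did not pass. Groups were apart for 9 of the 10 genes, against 41.0% of all genes. Leaving out the arrays with oocyte transcripts keeps 1 CA2 dendrite array. Cacna2d1 was then at 0.76 and Cacna2d3 at 0.55, and neither call held. In that fit Cacna1i was at -1.15, Cacna1e at -0.935, Cacna1h at -0.70 and Cacna1g at -0.55. The call of Cacna2d1 also ended without replicate 1 (adjusted p = 0.0722) or 2 (adjusted p = 0.0962), and that of Cacna2d3 without replicate 1 (adjusted p = 0.0613). Of 7 pyramidal neuron genes, 5 were lower in CA2 and 0 higher, and of 14 interneuron genes 6 were higher and 2 lower. Of 11 microglia genes, 9 were lower and 0 higher. Of 10 oligodendrocyte genes, 7 were higher and 0 lower, and of 12 endothelial genes 8 were higher and 0 lower. The part of these cells in the differences was not tested. Median centring of the arrays shifted the median difference of all genes from -0.11 to -0.0017 and gave 3 higher and 4 lower members (42.9% higher, against 25.0%), since Cacna1a (adjusted p = 0.40) and Cacna1b (adjusted p = 0.27) then missed the threshold and Cacna1c (0.27, adjusted p = 0.0351) passed it.

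**Figure D4:**
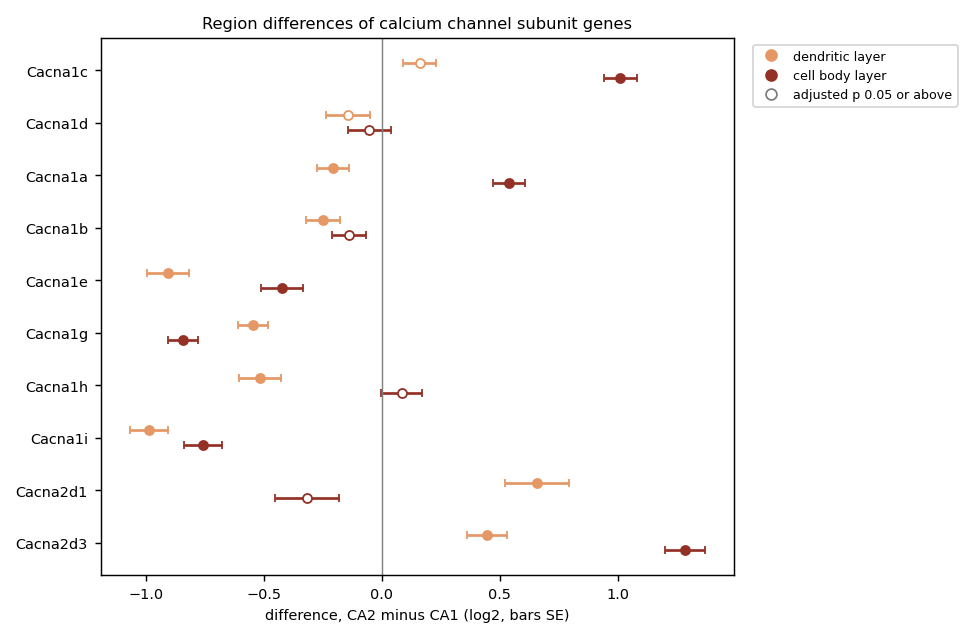
Region difference of each gene (CA2 minus CA1, log2) in the dendritic and the cell body layer, with bars for the SE of the limma fit and open points for an adjusted p of 0.05 or above. Cacna1g and Cacna1i lie left of 0 in both layers and Cacna2d3 right of 0 in both, and region coincides with run number in these contrasts.

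Ordered by level over the 4 groups, Cacna1e ran from the CA1 cell body layer through the CA2 cell body and CA1 dendritic layers down to the CA2 dendritic layer, with all neighbours apart. Cacna1b kept the same order, also with all neighbours apart. Its difference between the cell body layers did not pass, however (-0.14, adjusted p = 0.22). Its call between the dendritic layers was lost in 12 of 25 alternatives. For Cacna1c and Cacna2d3 the order was CA2 cell body, CA1 cell body, CA2 dendritic and CA1 dendritic layer. Cacna1a began in the same way, but its lowest group was the CA2 dendritic layer. Cacna2d1 ran from the CA1 cell body layer through both CA2 layers to the CA1 dendritic layer. For Cacna1d the 2 cell body layers overlapped, as did the 2 dendritic layers. Cacna1g and Cacna1i had both CA1 layers above both CA2 layers, with overlap between the CA2 layers and, for Cacna1i, also between the CA1 layers. Cacna1h was lowest in the CA2 dendritic layer, and its other 3 groups overlapped in sequence. Over all genes, the cell body layers of the regions were apart for 43.7% and the dendritic layers for 41.0%. Where these orders set CA2 against CA1, the effects of region and of run cannot be told apart.

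Pairs of genes shared these patterns to different degrees. Over the 12 arrays, which come from 3 brains and 4 groups, Pearson correlations among the 10 genes ran from -0.535 for Cacna1c with Cacna1i to 0.980 for Cacna1b with Cacna1e. Cacna1c correlated with Cacna2d3 at 0.948, Cacna1a with Cacna1c at 0.930 and Cacna1g with Cacna1i at 0.892, while Cacna2d1 correlated with Cacna2d3 at 0.822. Among all genes, those most like Cacna1e were Cep19 (0.996), Epha6 (0.995) and Grin2b (0.995). Those most like Cacna2d3 were Map2k4 (0.995), Prkca (0.993) and Pgm2l1 (0.993), and those most like Cacna1c were Lpgat1 (0.993), Slc6a15 (0.992) and Clstn2 (0.990). For Cacna1g they were Tbc1d1 (0.988), Crhr1 (0.986) and Fibcd1 (0.985), and for Cacna1i Doc2b (0.980), Mpped1 (0.979) and Zfhx2 (0.977). Fibcd1 and Mpped1 also stand in the list of 7 CA1 neuron markers. Of these 7, 5 were lower in the CA2 than in the CA1 cell body layer, 0 were higher and 2 did not pass. Region and run coincide in these correlations. The genes most like Cacna2d1 were Srpk1 (0.991), Trpc1 (0.990) and Ylpm1 (0.989), and those most like Cacna1d were Zc3h12b (0.994), Trub1 (0.992) and Vps53 (0.990). For Cacna1a they were Sema7a (0.990), Lrriq1 (0.988) and Jdp2 (0.986), for Cacna1b Dync1h1 (0.991), Camsap1 (0.988) and Caly (0.988), and for Cacna1h Mink1 (0.987), Matk (0.987) and Prickle2 (0.974).

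Of 9 further subunit genes measured, 2 were higher and 2 lower in the dendritic layer of CA1 (median 0.11), and 1 higher and 3 lower in that of CA2 (median -0.16). Over all genes 28.3% were higher and 18.5% lower in CA1, and 16.2% and 17.8% in CA2. Cacnb2, which encodes a beta subunit, read 7.33, 7.28 and 7.33 on the CA1 dendrite arrays against 9.07, 9.02 and 9.06 on the CA1 cell body arrays, which is a fall of 1.74 (adjusted p = 3.5e-08). The CA2 readings were 7.31, 7.36 and 7.49 on the dendrite arrays against 8.77, 8.63 and 8.72 on the cell body arrays, a fall of 1.32 (adjusted p = 1.6e-07). The 4 Cacnb2 groups thus fell into a low dendritic and a high somatic pair. The beta subunit gene Cacnb1 fell by 0.69 (adjusted p = 8.3e-05) and 0.93 (adjusted p = 1.1e-05) in CA1 and CA2. Cacnb4 differed by -0.21 (SE 0.08, adjusted p = 0.061) and -0.22 (SE 0.08, adjusted p = 0.064). Cacna2d2, another alpha2delta gene, went the other way: it rose by 0.21 (adjusted p = 0.0438) in CA1, and in CA2 it read 7.76, 7.62 and 7.83 on the dendrite arrays against 7.06, 7.22 and 7.12 on the cell body arrays, a rise of 0.60 (adjusted p = 1.3e-04). Its layer difference was larger in CA2 than in CA1 by 0.39 (adjusted p = 0.0461). Between the layer differences, CA2 minus CA1, Cacnb2 passed (0.42, adjusted p = 0.0189), while Cacnb1 (-0.24, adjusted p = 0.194) and Cacnb4 (-0.01, adjusted p = 0.946) did not. Between the cell body layers, Cacnb1 (-0.41, adjusted p = 0.0065) and Cacnb2 (-0.34, adjusted p = 0.0039) were lower in CA2, and Cacnb4 (0.20, adjusted p = 0.126) and Cacna2d2 (-0.03, adjusted p = 0.848) did not pass. Between the dendritic layers, Cacnb1 was lower in CA2 (-0.65, adjusted p = 5.9e-04) and Cacna2d2 higher (0.36, adjusted p = 0.0076), and Cacnb2 (0.07, adjusted p = 0.393) and Cacnb4 (0.19, adjusted p = 0.109) did not pass. Of the 9 genes, 0 were higher and 2 lower in CA2 between the cell body layers, and 1 was higher and 1 lower between the dendritic layers. The shares over all genes were 10.6% and 10.5% between the cell body layers, and 11.6% and 18.6% between the dendritic layers. Cacnb3 was not analysed here.

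Of 14 genes whose products bind or regulate calcium channels, 3 were higher and 4 lower in the CA1 dendritic layer (median -0.01), and 2 higher and 6 lower in that of CA2 (median -0.16). The shares over all genes were 28.3% and 18.5% in CA1, and 16.2% and 17.8% in CA2. Stac2 (1.03 in CA1 and 0.82 in CA2) and Gem (0.64 and 0.40) were higher in both dendritic layers. Akap5, an anchoring protein that brings protein kinase A and calcineurin to L-type channels, fell by 1.10 in both regions (adjusted p = 5.3e-06 in CA1 and 5.2e-06 in CA2). Cachd1, a relative of the alpha2delta proteins, fell by 0.79 (adjusted p = 1.1e-05) in CA1 and 0.98 (adjusted p = 2.5e-06) in CA2. Rims1, an active-zone scaffold that tethers presynaptic calcium channels, rose by 0.62 (adjusted p = 4.4e-05) in the CA1 dendritic layer and differed by 0.15 (SE 0.07, adjusted p = 0.12) in CA2, and the difference between these passed (-0.47, adjusted p = 0.0151). It was higher in CA2 in both layers, by 0.997 between the cell body layers (adjusted p = 6.2e-06) and 0.53 between the dendritic layers (adjusted p = 6.0e-04). Stac, an adaptor of L-type channels, fell by 0.87 (adjusted p = 2.3e-05) in the CA1 dendritic layer and differed by -0.14 (SE 0.09, adjusted p = 0.28) in that of CA2. Rem2, a small GTPase that inhibits high-voltage channels, fell by 1.08 (adjusted p = 6.2e-06) in the CA2 dendritic layer and by 0.47 (adjusted p = 0.0019) in that of CA1. Rimbp2, a partner of RIM proteins and calcium channels, fell by 0.68 (adjusted p = 1.6e-04) in the CA2 dendritic layer and differed by -0.15 (adjusted p = 0.20) in that of CA1. Cabp1, a calcium sensor that modulates channel inactivation, was higher in the CA2 than in the CA1 cell body layer by 0.52 (adjusted p = 0.0019). Between the layer differences, CA2 minus CA1, Stac (0.73, adjusted p = 0.0056) was less negative in CA2, and Rem2 (-0.62, adjusted p = 0.0147) and Rimbp2 (-0.53, adjusted p = 0.0255) were more negative. Between the cell body layers Rem2 was higher in CA2 (0.49, adjusted p = 0.0036) and Stac lower (-1.11, adjusted p = 1.4e-05). Between the dendritic layers Rimbp2 (-0.44, adjusted p = 0.0058), Stac (-0.39, adjusted p = 0.0098) and Tspoap1 (-0.24, adjusted p = 0.0172), which encodes a relative of Rimbp2, were lower in CA2.

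**Figure D5:**
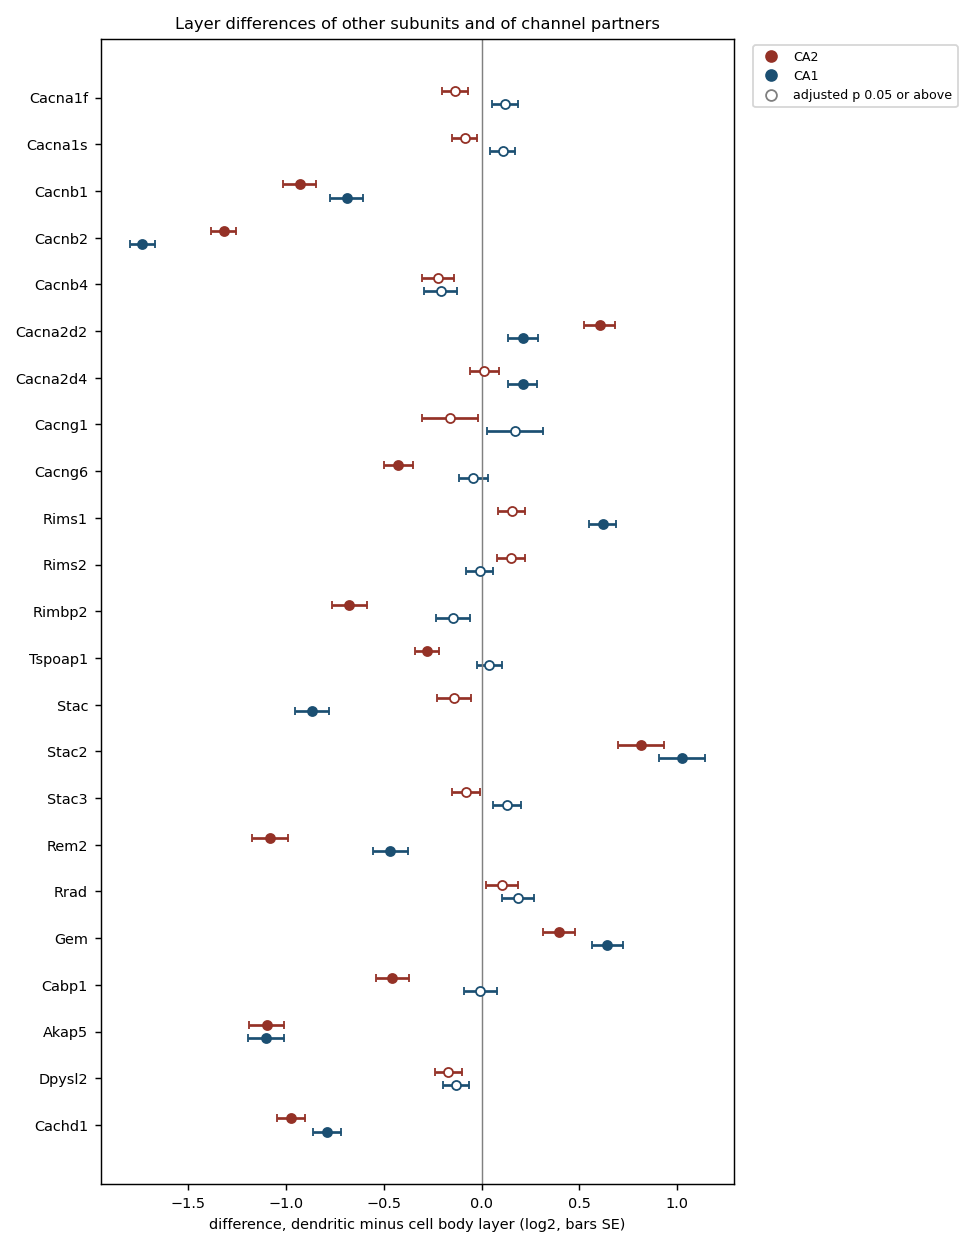
Layer differences (dendritic minus cell body layer, log2) in CA2 and in CA1 of 9 further subunit genes and 14 channel partner genes, with bars for the SE of the limma fit and open points for an adjusted p of 0.05 or above. Cacnb2 lies farthest to the left in both regions, and Cacna2d2 lies right of 0 in both.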

How the data were processed

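Total RNA from laser-captured pieces was amplified and hybridised to 12 arrays, 3 in each of 4 groups. Each deposited value is a log2 level that the authors made with RMA, per the submitters' processing notes. Whether both runs were normalized together is not given in the sources used here, nor is the build. Arrays give no read depth, and their number limits precision. Of 72688 features, 30604 had 1 gene symbol, symbols were updated through Entrez identifiers (RefSeq, GRCm38.p6), and the brightest feature of each symbol was kept, which left 30142 genes. Differences were tested with limma 3.58.1 in R 4.3.3 with 4 group means fitted to all 12 arrays and a replicate block, two-sided, with Benjamini-Hochberg adjustment over all 30142 genes and calls at an adjusted p under 0.05. The fit was run on simulated data with independent noise and 200 changed genes in 1 group. That simulation held no effect of run, replicate or contamination, so it cannot tell how the fit deals with these. The block was kept because the labels' protocols give 4 pieces per brain, but no label says that the number is the mouse. Deviations of arrays from their group means were correlated between groups, and 1 of 18 same-numbered pairs exceeded 0.1 (range -0.346 to 0.132). Of pairs with other numbers, 6 of 36 exceeded 0.1 (range -0.134 to 0.251). Same-numbered arrays were thus no more alike than others.

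All 10 members are named in every comparison, as are Cacnb1, Cacnb2, Cacnb4 and Cacna2d2, with up to 4 partner genes of smallest p in each and, for each member, up to 3 genes with the highest correlation over the arrays, leaving out predicted genes, small RNAs and receptors of smell and taste. Stac2 and Gem are named beyond this rule, as partners higher in both dendritic layers. The members, gene lists and tests were chosen with earlier results of these data known. Marker levels are the log2 of the sum of the linear values of a list. Alternatives covered the block, the groups fitted, normalization, filter, features, array weights, the prior, and leaving out arrays.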

Additional observations from a re-analysis of the deposited data

Results flagged for a closer look

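For 6 of the 10 calcium channel genes the layer difference (dendritic minus cell body layer) differed between the regions by the test of that difference, where 11.6% of all genes did. In CA2 minus CA1 terms these were -0.75 for Cacna1a, -0.85 for Cacna1c, -0.49 for Cacna1e, -0.60 for Cacna1h, 0.97 for Cacna2d1 and -0.84 for Cacna2d3 on the log2 scale. The layer differences on which they rest were, in CA2 and in CA1, -0.90 and -0.15 for Cacna1a, -1.18 and -0.33 for Cacna1c, -2.63 and -2.14 for Cacna1e, -0.61 and -0.01 for Cacna1h, -1.09 and -2.07 for Cacna2d1 and -2.30 and -1.46 for Cacna2d3. Beside these, the median over all genes of the same contrast was -0.11. The calls of Cacna1a and Cacna1c held in all 24 alternatives, while that of Cacna1e was lost in 16, those of Cacna1h and Cacna2d1 in 3 each and that of Cacna2d3 in 1. Poly-A control features, which report on amplification, averaged 9.53 in the CA2 dendritic layer and 8.66 in the CA2 cell body layer, against 8.07 in the CA1 dendritic layer and 10.89 in the CA1 cell body layer; their part in these differences was not tested.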

How the results depend on the processing

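Of 1240 values of single genes under alternatives, 1152 kept their direction and side of the threshold, 65 lost and 7 gained a call, and 16 changed sign, all of them differences that did not pass in the first place. The counts of genes called lower in the layer comparisons ranged from 5 to 7 in CA1 and from 7 to 8 in CA2 over all alternatives. The number higher in CA1 was 1 after quantile normalization. For the difference between the layer differences, the number higher was 2 without the replicate block (Cacna1g, adjusted p = 0.035), 2 among genes brighter than the median feature, and 0 with the 3 oocyte-positive arrays left out; leaving out a replicate number gave 0 to 1 higher and 3 lower, and leaving out those arrays 3 lower. Between the dendritic layers the number higher was 0 without those arrays and 0 to 2 when a replicate number was left out. The replicate block changed no other call of a member. Sign changes were in Cacna1h in CA1 (0.096 after quantile normalization, 0.0027 with array weights, -0.078 to 0.041 when arrays were left out), Cacna1g in CA2 (-0.032 after quantile normalization, -0.01 after median centring, -0.02 without the arrays with oocyte transcripts, -0.016 to 0.052 when 1 array or number was left out), Cacna1i in CA2 (-0.28 without the arrays with oocyte transcripts, -0.11 to 0.011 when 1 array or replicate number was left out), and Cacna1d between the regions' layer differences (-0.27 to 0.02 when arrays were left out) and between the cell body layers (0.023 after quantile normalization, 0.047 after median centring). Over all genes, the CA2 against CA1 dendritic comparison called 9105 genes, against 3109 in a fit of those 2 groups alone, 5579 with array weights, 3663 to 6076 without a replicate number and 1918 without the arrays with oocyte transcripts. The layer contrast between regions called 3504, against 697 to 1409 without a replicate number and 699 without those arrays. The CA2 layers called 10251, against 5707 without those arrays, and the cell body layers 6367, against 3451 to 4147 without a replicate number. In the cell body comparison of regions 50.3% of called genes were higher in CA2, against 74.3% after median centring, which moved the median of all genes from 0.02 to 0.12, and 70.4% after quantile normalization; in the dendritic comparison the shares were 38.3%, 70.3% and 56.4%, and for the layer contrast between regions 41.4%, 42.1% and 30.2%. With all 72688 features tested the shares were 33.3%, 36.5% and 61.5% in these 3 comparisons, over 11487, 11157 and 4749 called features. The causes were not tested.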
